A study of Homo sapiens with 8 samples.

Results

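Expression of ERRg, a nuclear receptor, in the human neuroblastoma cell line SH-SY5Y was followed through 10 genes of the ATF4 stress response. These genes are ATF4, ATF5, ATF3, DDIT3, CEBPB, PPP1R15A, TRIB3, DDIT4, CHAC1 and ASNS, chosen by name from the 67060 genes of the deposited count table, and all of them passed the low-count filter that left 21993 genes for testing. One group received an adenovirus for BioID-Flag-Esrrg, a fusion of the biotin ligase BioID to Flag-tagged ERRg (ERRg, 4 libraries), and the other an adenovirus for BioID-GFP-NLS, the same ligase on nuclear green fluorescent protein (GFP, 4 libraries). Both groups carried the ligase and a virus, cells were at 80% confluence when 0.5 ul of virus was added, and total RNA, depleted of ribosomal RNA, was taken after 48 h. Uninfected cells were not analysed here, and the labels do not say whether the libraries of a group came from separate cultures.

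In the integrated stress response, kinases that sense unfolded protein, missing amino acids, heme deficiency or double-stranded RNA phosphorylate the translation factor eIF2, which lowers general protein synthesis while translation of ATF4 and ATF5 mRNA goes up. ATF4 is a basic leucine zipper (bZIP) activator that pairs with C/EBP family proteins, binds composite C/EBP-ATF sites and turns on genes for amino acid uptake, amino acid synthesis and tRNA charging. It also turns on ATF3, DDIT3, TRIB3 and PPP1R15A, which feed back on the response, and prolonged activity is linked to cell death. Because much of the control of ATF4 lies in translation, mRNA levels such as those given here do not measure its protein.

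The 250 bases upstream of each annotated start (RefSeq, GRCh38.p14) were searched on both strands for 3 short sequences. They were TGATGNAA for the composite site bound by ATF4, TGACGTCA for the cAMP response element bound by several ATF and CREB proteins, and AAGGTCA for the core of the element bound by ERR receptors, without the bases that extend it on its 5′ side. All 10 genes matched the RefSeq table, with 19 windows among them, some of which overlap. The first was present in 3 of the 19 windows, the second in 1 and the third in 1, against 3.14%, 1.65% and 3.44% of 35116 windows of the same length over all genes. The 4 windows that hold a match are shown 5′ to 3′ along the gene's strand, with the matches in capitals, and no 2 matches overlap. In CHAC1 the capitals are the reverse complement of the composite site.
CHAC1, chr15:40953221-40953470, plus strand: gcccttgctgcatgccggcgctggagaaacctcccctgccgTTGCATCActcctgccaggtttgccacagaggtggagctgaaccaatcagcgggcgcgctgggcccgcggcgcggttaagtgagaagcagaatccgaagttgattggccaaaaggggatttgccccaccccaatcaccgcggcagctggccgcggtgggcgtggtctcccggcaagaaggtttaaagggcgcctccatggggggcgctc
ASNS, chr7:97872409-97872658, minus strand: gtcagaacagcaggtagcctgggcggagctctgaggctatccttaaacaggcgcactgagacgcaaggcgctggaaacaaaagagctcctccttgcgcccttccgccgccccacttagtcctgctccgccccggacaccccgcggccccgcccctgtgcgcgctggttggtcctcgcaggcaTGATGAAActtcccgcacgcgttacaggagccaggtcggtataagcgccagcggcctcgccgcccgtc
ATF3, chr1:212565157-212565406, plus strand: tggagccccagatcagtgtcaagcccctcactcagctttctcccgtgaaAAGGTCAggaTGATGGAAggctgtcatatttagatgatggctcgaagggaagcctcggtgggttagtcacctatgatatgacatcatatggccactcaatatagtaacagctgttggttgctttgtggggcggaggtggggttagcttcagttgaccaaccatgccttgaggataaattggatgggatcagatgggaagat
PPP1R15A, chr19:48872171-48872420, plus strand: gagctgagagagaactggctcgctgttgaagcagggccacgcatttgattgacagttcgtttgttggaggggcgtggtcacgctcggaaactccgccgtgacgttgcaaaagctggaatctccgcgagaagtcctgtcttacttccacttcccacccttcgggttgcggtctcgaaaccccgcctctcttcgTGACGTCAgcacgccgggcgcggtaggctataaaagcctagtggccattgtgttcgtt
The match in CHAC1 begins 209 bases upstream of the start and that in ASNS 68 bases upstream. The ATF3 window, one of 2 for that gene, holds the ERR core 201 bases upstream and the composite site 191 bases upstream, and the PPP1R15A window holds the cAMP response element 58 bases upstream. A match is a run of letters and was not tested for binding.

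The libraries themselves differed between the groups. Reads assigned to genes numbered 21.02 to 23.0 M per library in ERRg and 27.7 to 35.5 M in GFP. Reads that the counting matched to no annotated feature were 46.7% ± 1.31 in ERRg libraries, against 20.9% ± 3.58 in GFP libraries (SD, n = 4 each). The strand setting of the counting is not given, so where those reads lay is not known. Mitochondrially encoded genes took 7.72% ± 0.540 of gene reads in ERRg and 3.98% ± 1.19 in GFP. Levels are in CPM, counts per M gene reads after TMM scaling (trimmed mean of M values, which sets libraries to a common level through most of their genes), at which 1 CPM corresponds to at least 24.3 reads in a library. ESRRG, the gene carried by the virus, stood at 711 to 888 CPM in ERRg libraries and at 32.7 to 37.1 CPM in GFP libraries, so it was higher in every library labelled ERRg. Of 8 noradrenergic neuroblastoma markers, 6 were tested, and TH and CHGA were at 0 in every library. Whether such a 0 is absence or reads lost in mapping or counting was not tested. The summed level of the 8 was 350.3 to 414 CPM in ERRg and 590.3 to 679 CPM in GFP. Summed levels were 2530.0 to 2874 CPM in ERRg and 5395 to 6417 CPM in GFP for 8 mesenchymal markers, all detected, and 172 to 243 CPM in ERRg and 239.9 to 319.9 CPM in GFP for 5 epithelial markers. VIM carried most of the mesenchymal difference, at 903 CPM in ERRg and 3469 CPM in GFP, while LUM was higher in ERRg (adjusted p = 0.0115) and PRRX1 was not called (adjusted p = 0.247). KRT18 made up most of the epithelial sum, and EPCAM, at 1.21 CPM in ERRg and 0.992 CPM in GFP, was not called (adjusted p = 0.319). The 4 immune markers summed to at most 0.676 CPM in ERRg and 0.936 CPM in GFP, with CD3E at 0. The part of these differences in the results below was not tested, and in bulk RNA fewer cells of a type and less RNA per cell cannot be told apart. Within ERRg, libraries 1 and 2 were close to each other over the whole table, with a chi-square of counts per gene of 2.90, as were libraries 3 and 4 at 5.03. Other pairs of ERRg libraries differed by 10.01 to 22.6, and the labels do not say whether either pair shares a culture. Pairs of GFP libraries differed by 12.3 to 40.0, the most between GFP 2 and GFP 3.

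Of the 10 genes, 8 were lower in ERRg libraries than in GFP libraries and 2 were higher. CHAC1, DDIT4, TRIB3, ATF5, CEBPB, PPP1R15A, ATF4 and DDIT3 fell, with ERRg levels between 0.248 and 0.606 of the GFP level, and ATF3 and ASNS rose 1.63-fold and 1.83-fold, although ASNS shares most of its coding bases with a second annotated gene and its count is uncertain. These calls come from edgeR's quasi-likelihood test with TMM scaling, at a Benjamini-Hochberg adjusted p under 0.05 over all genes tested. Calls were common in this comparison: 35.9% of the 21993 genes were called lower and 38.8% higher. In each of the 10 genes the 4 ERRg libraries did not overlap the 4 GFP libraries, which was so for 34.6% of all genes tested with ERRg below GFP and for 33.9% with ERRg above GFP. The median log2 fold change, ERRg over GFP, was -1.18 for the 10 genes, 0.09 for all genes tested and -0.30 for coding genes. All 10 are coding genes. When coding genes alone were fitted, 39.6% were called lower and 40.7% higher, and the 10 again gave 8 lower and 2 higher. The median of the 10 was then -0.87, beside 0.02 for all coding genes. Against a log2 fold change of 1, edgeR called 5 of the 10 lower (CHAC1, DDIT4, TRIB3, ATF5 and CEBPB) and 0 higher, where 10.5% of all genes were called lower and 7.69% higher. At an unadjusted p under 0.05 that test gave the same counts, 5 lower and 0 higher, and it was run in edgeR alone.

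Fold changes ran with the base composition of the transcripts. Coding genes were sorted by the GC content of their longest transcript into 10 equal bins, and the median log2 fold change ran from 0.62 in the bin lowest in GC to -1.33 in the bin highest in GC. Of the 8 genes that fell, 7 lie in the 3 bins richest in GC, and the pair that rose lies in the fifth bin, whose median was -0.21. A second fit gave each library its own smooth offset for GC content, transcript length and gene span, over 13426 coding genes. In that fit CHAC1, DDIT4, TRIB3 and ATF5 were still called lower, ATF3 and ASNS were still called higher, and ATF4, CEBPB, PPP1R15A and DDIT3 were not called. Over the coding genes this fit called 39.7% lower and 32.0% higher, and the median of the 10 genes was 0.05 on the log2 scale against -0.05 for all coding genes. Changes along GC content that arose in the cells and those that arose in the libraries cannot be told apart by such offsets.

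**Figure D1:**
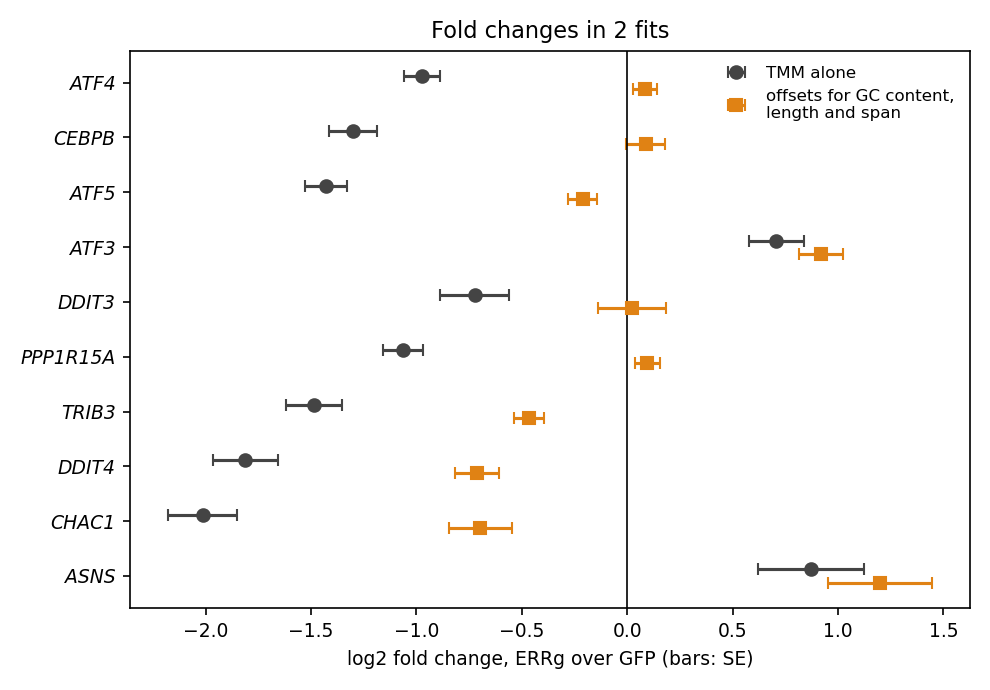
Log2 fold change of each of the 10 genes, ERRg over GFP, with TMM alone (grey circles) and with offsets for transcript length, GC content and span (orange squares); bars are standard errors. ATF3 and ASNS lie right of 0 in both fits, CHAC1, DDIT4, TRIB3 and ATF5 left of 0 in both, and ATF4, CEBPB, PPP1R15A and DDIT3 move from left of 0 to near 0.

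**Figure D2:**
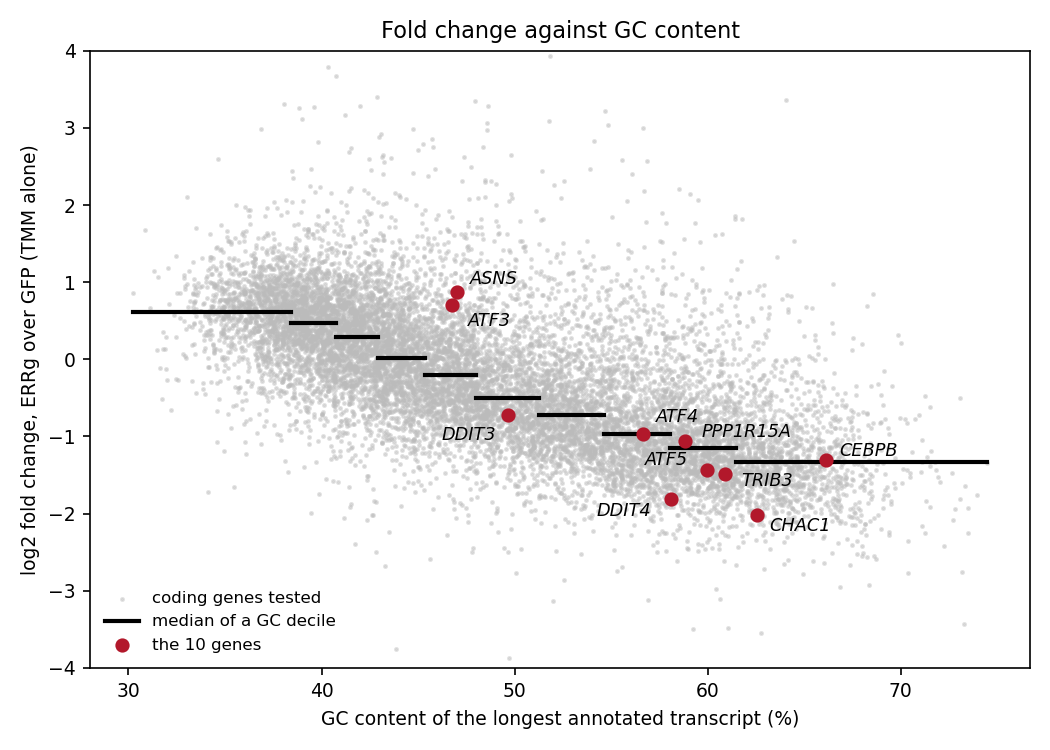
Log2 fold change (vertical, TMM alone, ERRg over GFP) against GC content of the longest annotated transcript (horizontal, %) for 13426 coding genes (grey, 12 of them outside the vertical range), with the median of each GC bin (black) and the 10 genes (red). ATF4 and CEBPB sit at the median of their bins, CHAC1 and DDIT4 below it, and ATF3 and ASNS above it.

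ATF4, the central activator of the response, was the most abundant of the 10 genes and stood at 0.509 of its GFP level. It lies on chromosome 22 from 39519695 to 39522685, plus strand (GENCODE 29, GRCh38). Its level was 120.3, 115, 132 and 123 CPM in ERRg libraries 1 to 4, against 233, 256, 242 and 233 CPM in GFP libraries 1 to 4. The highest ERRg library lay far below the lowest GFP library, and both groups were tight, with a coefficient of variation of 5.73% in ERRg and 4.47% in GFP. Its log2 fold change of -0.97 (SE 0.08) had an adjusted p of 2.28e-09 in edgeR. This equals the median of the eighth GC bin, in which ATF4 lies with a GC content of 56.7%, and with the offsets the value was 0.08 (SE 0.06, adjusted p = 0.188). Reads in the 4 ATF4 pseudogenes of the table numbered at most 8 per gene and library, so little of the ATF4 signal was counted there.

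ATF5, a bZIP factor whose translation is controlled much as that of ATF4, fell further. It lies on chromosome 19 from 49928702 to 49933935, plus strand. Its level was 12.4, 12.2, 14.6 and 13.1 CPM in ERRg libraries 1 to 4 and 33.002, 38.6, 32.8 and 36.4 CPM in GFP libraries 1 to 4. The GFP libraries thus stood 2.69-fold above the ERRg libraries on average, with a log2 fold change of -1.43 (SE 0.10, edgeR adjusted p = 1.98e-10). With the offsets the decrease was smaller but still called (-0.21, SE 0.07, adjusted p = 0.0086). IL4I1 and NUP62 overlap 21.2% of its exon bases on the opposite strand, and the strand setting of the authors' counting is not given in the sources used here.

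CEBPB, a C/EBP family factor that forms dimers with ATF4, had 7.49, 7.81, 10.1 and 9.11 CPM in ERRg libraries 1 to 4 and 19.9, 22.01, 22.5 and 20.6 CPM in GFP libraries 1 to 4. Its single exon lies on chromosome 20 from 50190734 to 50192689, plus strand, and has the highest GC content of the 10 genes at 66.2%. All ERRg libraries were at or below 10.1 CPM and all GFP libraries at or above 19.9 CPM, a log2 fold change of -1.30 (SE 0.11, edgeR adjusted p = 2.17e-09). The median of its GC bin was -1.33, and the offsets turned the sign of the fold change, which was then 0.09 (SE 0.09, adjusted p = 0.399).

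DDIT3, which encodes the death-linked bZIP factor CHOP, was among the less abundant of the 10. It lies on chromosome 12 from 57516588 to 57521737, minus strand. Its level was 2.39, 2.37, 2.34 and 2.03 CPM in ERRg libraries 1 to 4 and 4.03, 3.14, 3.74 and 4.20 CPM in GFP libraries 1 to 4. These values rest on 50 to 63 reads per ERRg library and 91 to 113 reads per GFP library, and ERRg 4 stood apart below the other 3 ERRg libraries. Its log2 fold change of -0.72 (SE 0.16) had an adjusted p of 0.000513 in edgeR, and it was -0.32 and not called with library totals as the scale (adjusted p = 0.102). With the offsets it was 0.02 (SE 0.16, adjusted p = 0.906). AC022506.1 overlaps 8.0% of its exon bases on the same strand, and MARS and MBD6 overlap 31.6% on the opposite strand.

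ATF3, a bZIP factor induced by many stresses that can repress as well as activate, was one of the 2 genes that rose. It lies on chromosome 1 from 212565334 to 212620777, plus strand, and no annotated gene overlaps its exons. Its level was 9.30, 9.65, 9.69 and 8.33 CPM in ERRg libraries 1 to 4 and 5.60, 5.80, 6.62 and 4.57 CPM in GFP libraries 1 to 4. Replicate 4 was the lowest of each group, and even so the lowest ERRg library stood above the highest GFP library. Its log2 fold change of 0.71 (SE 0.13) had an adjusted p of 5.56e-05 in edgeR, and it was larger with the offsets (0.92, SE 0.10, adjusted p = 2.88e-07). ATF3 thus moved opposite to ATF4, CEBPB and ATF5 in the fit with TMM alone.

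**Figure D3:**
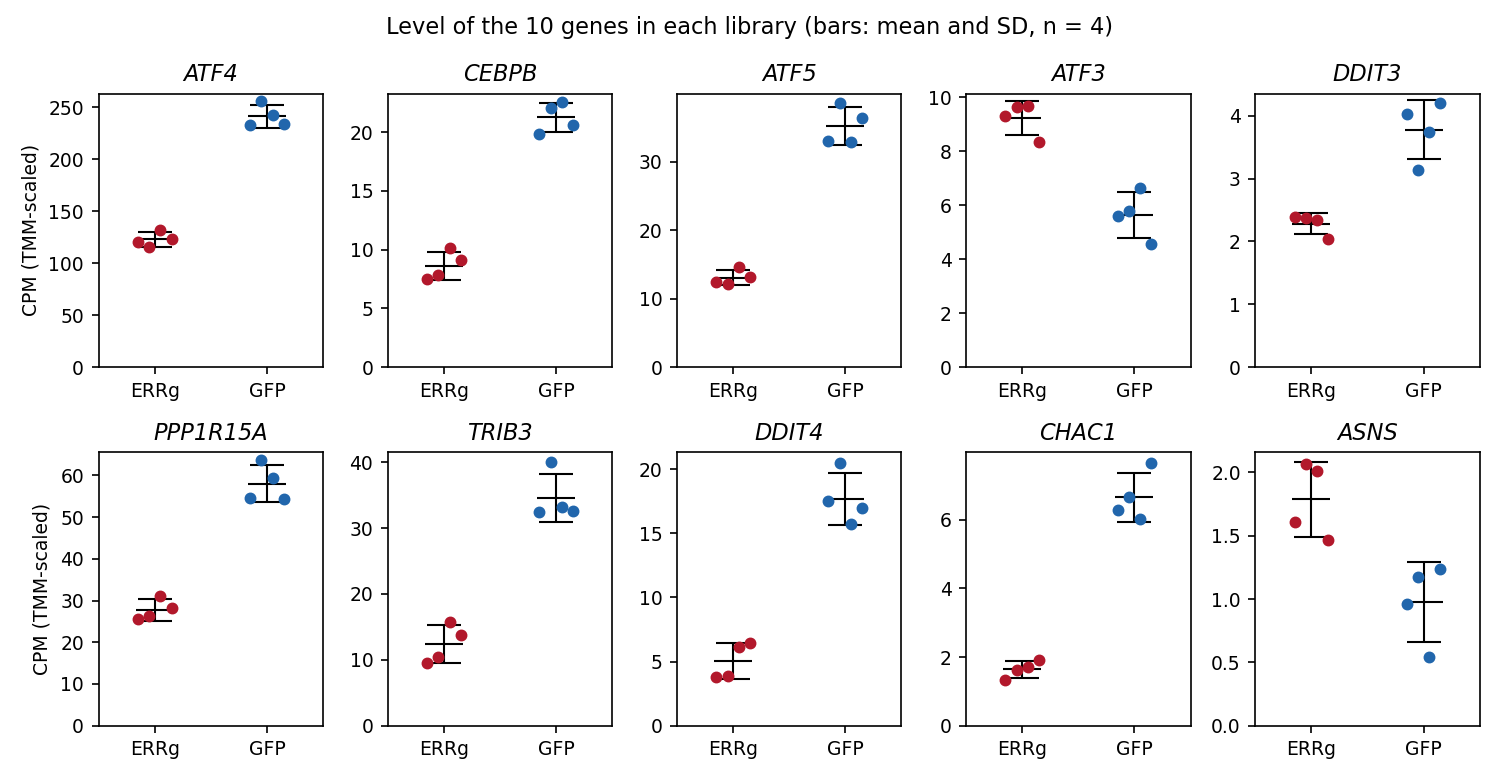
Level (CPM, TMM-scaled, linear axes from 0) of each of the 10 genes in the 4 ERRg libraries (red) and the 4 GFP libraries (blue), each point a library, with the mean and SD of each group. In every panel the groups are apart, with ERRg above GFP for ATF3 and ASNS and below GFP for the other 8 genes.

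PPP1R15A encodes GADD34, the inducible subunit that directs protein phosphatase 1 to eIF2 and so ends the response. The gene lies on chromosome 19 from 48872392 to 48876057, plus strand. It was measured at 25.5, 26.2, 31.2 and 28.2 CPM in ERRg libraries 1 to 4 and at 54.7, 63.7, 59.3 and 54.4 CPM in GFP libraries 1 to 4. All ERRg libraries lay below all GFP libraries, with a log2 fold change of -1.06 (SE 0.10, edgeR adjusted p = 3.56e-09). With the offsets the value was 0.10 (SE 0.06, adjusted p = 0.163). Over the 8 libraries its profile was the closest to that of ATF4 among the other 9 genes, with a root mean square difference of 0.063 on the centred log2 CPM scale, followed by CEBPB at 0.167.

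TRIB3 encodes a pseudokinase that binds ATF4 and DDIT3 proteins and dampens them. It lies on chromosome 20 from 362835 to 397559, plus strand. Its level was 9.50, 10.5, 15.7 and 13.7 CPM in ERRg libraries 1 to 4 and 32.5, 40.02, 33.2 and 32.6 CPM in GFP libraries 1 to 4. ERRg 1 and 2 were the lower pair, GFP 2 stood apart above the other 3 GFP libraries, and the groups did not overlap. The resulting log2 fold change of -1.49 (SE 0.13) had an adjusted p of 3.43e-09 in edgeR. With the offsets it was -0.47 (SE 0.07, adjusted p = 1.51e-05).

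DDIT4 encodes REDD1, a stress-induced inhibitor of the growth kinase complex mTORC1. It lies on chromosome 10 from 72273920 to 72276036, plus strand. Its level was 3.79, 3.87, 6.12 and 6.42 CPM in ERRg libraries 1 to 4 and 17.6, 20.5, 15.8 and 17.0 CPM in GFP libraries 1 to 4. The ERRg libraries fell into a lower pair, 1 and 2, and a higher pair, 3 and 4, both well under the lowest GFP library. The difference, a log2 fold change of -1.81 (SE 0.15), had an adjusted p of 1.86e-09 in edgeR, and the offsets left it at -0.71 (SE 0.10, adjusted p = 6.18e-06). DDIT4-AS1 covers 41.2% of its exon bases on the opposite strand and had 0 reads in each library.

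CHAC1 encodes an enzyme that degrades glutathione and is a sensitive ATF4 target in other cells. It showed the largest fold change of the 10 with TMM alone, and only 1.20% of all genes tested had a lower log2 fold change. The gene lies on chromosome 15 from 40952962 to 40956519, plus strand. Its level was 1.32, 1.62, 1.72 and 1.91 CPM in ERRg libraries 1 to 4 and 6.28, 6.66, 6.01 and 7.66 CPM in GFP libraries 1 to 4. These correspond to 32 to 47 reads per ERRg library and 167 to 193 reads per GFP library, so that the GFP libraries stood 4.04-fold above the ERRg libraries. Its log2 fold change of -2.01 (SE 0.16) had an adjusted p of 9.48e-10 in edgeR, against a median of -1.33 in its GC bin. With the offsets it was -0.70 (SE 0.15, adjusted p = 0.000379).

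ASNS encodes asparagine synthetase, the enzyme that makes asparagine from aspartate and glutamine and a textbook target of ATF4. Its level was 1.60, 2.07, 2.01 and 1.46 CPM in ERRg libraries 1 to 4 and 0.963, 1.17, 0.540 and 1.23 CPM in GFP libraries 1 to 4. The groups did not overlap, but the gap between ERRg 4 and GFP 4 was small. Its log2 fold change of 0.87 (SE 0.25) had an adjusted p of 0.00385 in edgeR, and the value was 1.20 with the offsets (SE 0.24, adjusted p = 0.00025). These values rest on 36 to 55 reads per ERRg library and 15 to 34 reads per GFP library. The gene lies on chromosome 7 from 97852118 to 97872542, minus strand, and a second gene on the same strand, AC079781.5, covers 96.1% of its coding bases and 44.6% of its exon bases. Reads in bases that 2 genes share can be left unassigned, and such reads were 5.44% ± 0.415 of the total in ERRg libraries, against 12.1% ± 1.46 in GFP libraries (SD, n = 4 each). AC079781.5 itself had 27 to 35 reads per ERRg library and 21 to 58 per GFP library and was not called (log2 fold change -0.43, adjusted p = 0.123). The sum of both genes was 2.72, 3.38, 3.32 and 2.68 CPM in ERRg libraries 1 to 4 and 3.03, 2.90, 2.52 and 2.10 CPM in GFP libraries 1 to 4, so the groups overlapped in the sum. The level of ASNS in these counts, and the direction of its change, are therefore uncertain.

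Set on a scale per length, in CPM per kb of annotated exon, the 10 genes kept a similar order in both groups. ATF4 stood highest at 48.8 ± 2.80 in ERRg and 95.9 ± 4.29 in GFP, and PPP1R15A came next at 8.98 ± 0.826 in ERRg and 18.8 ± 1.42 in GFP (SD, n = 4 each). ATF5, CEBPB, TRIB3 and DDIT4 followed, from 4.43 to 2.45 in ERRg and from 11.9 to 8.60 in GFP, and each of these overlapped its neighbour in the order in both groups. ATF3 was at 2.29 ± 0.156 in ERRg and 1.40 ± 0.209 in GFP, DDIT3 at 1.75 ± 0.128 in ERRg and 2.89 ± 0.356 in GFP, and CHAC1 at 0.798 ± 0.121 in ERRg and 3.23 ± 0.350 in GFP. ATF3 stood above CHAC1 and DDIT3 in ERRg and below both in GFP, ATF3 overlapped DDIT4 in ERRg alone, and CHAC1 overlapped DDIT3 in GFP alone. ASNS was the lowest in both groups as counted, at 0.401 ± 0.0668 in ERRg and 0.219 ± 0.0705 in GFP. Its rank is uncertain, since reads in the bases it shares with AC079781.5 may have gone uncounted.

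The spread within ERRg was not even over the genes. In 7 of the 10 genes, ERRg 1 and 2 were the 2 lowest of the 4 ERRg libraries, and in 5 genes GFP 2 was the highest GFP library. The share of all genes with either pattern was not counted, so neither can be called a trait of the 10. ERRg 1 and 2 were also close to each other over the whole table. DDIT4 and TRIB3 varied most within ERRg, with coefficients of variation of 28.05% and 23.3%, against 11.4% and 10.5% in GFP. With ERRg 1 and 2 alone set against GFP the median log2 fold change of the 10 genes was -1.34, and with ERRg 3 and 4 alone it was -1.08, with 8 lower and 2 higher calls in each.

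Close relatives of the 10 genes often moved differently, and the ratio of a gene to its relative within a library does not depend on how libraries are scaled. In 8 pairs the groups were compared by an exact two-sided permutation test of the log2 count ratio over the 70 arrangements of 4 against 4 libraries, after the fold changes were known. In all 8 pairs the groups did not overlap, and p and the value adjusted over the 8 pairs were 0.0286, the smallest this design allows. The 10 genes were already known to separate the groups, so this p was nearly settled beforehand and adds no support. Other gene pairs were not tested. Nor does a ratio remove the trend along GC content. PPP1R15A and PPP1R15B are at 58.8% and 43.4%, while CEBPD and JDP2 are richer in GC than CEBPB and ATF3. TRIB3 against TRIB1, a related pseudokinase, gave the largest difference. Its log2 ratio was -1.82 ± 0.288 in ERRg and 1.07 ± 0.180 in GFP, a difference of -2.89 (SD, n = 4 each). TRIB1 itself rose, with 42.9 ± 3.46 CPM in ERRg and 16.5 ± 1.03 CPM in GFP and a log2 fold change of 1.38 (SE 0.10, edgeR adjusted p = 1.85e-10), which was 2.17 with the offsets. TRIB2, the third member of this family, had a log2 fold change of -0.57 (adjusted p = 1.80e-05), and TRIB3 fell against it by 0.94 on the log2 scale. With the offsets TRIB2 was at -0.06 and not called (adjusted p = 0.343), and the difference of this pair was -0.40.

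CHAC1 fell against CHAC2, a related glutathione-degrading enzyme, by 1.96 on the log2 scale. The log2 count ratio was -2.47 ± 0.333 in ERRg and -0.52 ± 0.199 in GFP (SD, n = 4 each), and CHAC2 itself was at 9.10 ± 1.27 CPM in ERRg and 9.49 ± 0.508 CPM in GFP (edgeR adjusted p = 0.664). The 2 genes differ widely in GC content, at 62.6% and 36.7%, and with the offsets CHAC1 was 0.43 further down than CHAC2 on the log2 scale. PPP1R15A fell by 1.31 against PPP1R15B, the constitutive counterpart that rose slightly (log2 fold change 0.24, edgeR adjusted p = 0.0182), and with the offsets that difference was -0.26, with PPP1R15A itself at 0.10. DDIT4 fell by 1.21 against DDIT4L, which itself fell (log2 fold change -0.58, edgeR adjusted p = 0.025) on few reads, at 1.32 ± 0.420 CPM in ERRg and 1.97 ± 0.125 CPM in GFP. In that pair the offsets left a difference of -0.15.

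CEBPB fell in count ratio against both relatives that could be tested. Against CEBPG, a C/EBP protein that pairs with ATF4 at amino acid response genes, the log2 ratio was -1.67 ± 0.238 in ERRg and -0.12 ± 0.211 in GFP (SD, n = 4 each), a difference of -1.55. With the offsets it was -0.31, with CEBPB at 0.09 and CEBPG at 0.40. Against CEBPD, which like CEBPB lies among the genes richest in GC, the ratio was 1.22 ± 0.161 in ERRg and 2.74 ± 0.158 in GFP. CEBPD was not called with TMM alone (log2 fold change 0.22, edgeR adjusted p = 0.216) and was at 1.74 with the offsets (adjusted p = 5.30e-09). CEBPA was not tested, at 0.0102 CPM in ERRg and 0.126 CPM in GFP. ATF3 rose by 1.96 against JDP2, a bZIP repressor related to it, with log2 ratios of 1.52 ± 0.192 in ERRg and -0.44 ± 0.203 in GFP. JDP2 itself fell, to 3.23 ± 0.361 CPM in ERRg against 7.69 ± 1.44 CPM in GFP (log2 fold change -1.25, edgeR adjusted p = 4.43e-07), and with the offsets it was at -0.76.

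Among all genes with an average log2 CPM of at least 1, those most like ATF4 in profile over the 8 libraries were SAP30BP, SLC25A38 and TOR3A, with root mean square differences of 0.030, 0.034 and 0.040 in centred log2 CPM. SAP30BP had 106 ± 8.12 CPM in ERRg libraries, against 209 ± 14.04 CPM in GFP libraries (SD, n = 4 each). SLC25A38 had 28.5 ± 1.66 CPM in ERRg libraries and 56.1 ± 3.61 CPM in GFP libraries, and TOR3A had 31.1 ± 2.40 CPM in ERRg libraries and 61.4 ± 2.55 CPM in GFP libraries. None of the other genes among the 10 was as close to ATF4, but these were picked as the closest of all, so the comparison says little. Their GC content was 52.9%, 51.7% and 55.6%, beside 56.7% in ATF4.

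The wider pathway was read from 123 further genes in 6 lists drawn from textbook knowledge, of which 115 were tested. With TMM alone 68 were lower and 31 higher in ERRg, with a median log2 fold change of -0.44, beside 0.09 for all genes tested and -0.30 for coding genes. These are 59.1% and 27.0% of the tested genes in the lists, beside 35.9% and 38.8% of all genes tested. Most of this excess of lower calls was gone when coding genes alone were fitted and scaled with TMM. Then 51 were lower and 42 higher, which is 44.3% and 36.5% of the lists, beside 39.6% and 40.7% of all coding genes. Library totals as the scale gave 45 of the 115 lower and 44 higher, beside 5383 lower and 11791 higher of the 21993 genes tested. On that scale the lists still held a larger share of lower calls than all genes tested. With the offsets 58 were lower and 26 higher, with a median of -0.17, or 50.4% and 22.6%, beside 39.7% and 32.0% of all coding genes tested. Counts per list in the fit of coding genes alone are not given below. ATF6B, BATF, VARS1 and SESN2 are listed at 0 in all libraries, and whether their reads were lost in mapping or counting was not tested.

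The genes that control eIF2 were mixed, with 9 of 18 lower and 6 higher and a median log2 fold change of -0.23. That is 50% and 33.3% of the list, beside 35.9% and 38.8% of all genes tested. With the offsets 10 were lower and 4 higher, 55.6% and 22.2%, beside 39.7% and 32.0% of all coding genes tested. Of the 4 kinases, EIF2AK1 (HRI) fell, with 181 ± 16.5 CPM in ERRg and 279.7 ± 19.96 CPM in GFP (edgeR adjusted p = 3.31e-06). EIF2AK4 (GCN2) fell too, with 119 ± 1.79 CPM in ERRg and 161 ± 18.1 CPM in GFP (edgeR adjusted p = 0.000221), and both were also lower with the offsets. The endoplasmic reticulum kinase EIF2AK3 (PERK) stood at 17.1 ± 1.75 CPM in ERRg and 17.0 ± 1.81 CPM in GFP (edgeR adjusted p = 0.996). EIF2AK2 (PKR), the kinase for double-stranded RNA, was higher with TMM alone (log2 fold change 0.36, adjusted p = 0.0027) and lower with the offsets (-0.21, adjusted p = 0.00271). GCN1, which activates GCN2 at stalled ribosomes, fell to 246 ± 41.7 CPM in ERRg against 546 ± 46.2 CPM in GFP. The eIF2B subunits EIF2B4 and EIF2B2 fell by 1.15 and 0.99 on the log2 scale, and the eIF2 subunit EIF2S2 rose by 0.45 and the mitochondrial protease OMA1 by 0.47, all 5 in the same direction with the offsets.

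Among the bZIP partners and paralogs 10 of 20 tested were lower and 8 higher (50% and 40%), with a median of -0.19. Over all genes tested the shares were 35.9% and 38.8%. With the offsets 7 were lower and 8 higher (35% and 40%), where all coding genes tested gave 39.7% and 32.0%. MAFG and JUN fell by 1.30 and 1.15 on the log2 scale, but JUN was at -0.11 with the offsets and not called (adjusted p = 0.0728). CEBPZ, a CCAAT-binding factor that shares the C/EBP name, rose to 73.9 ± 13.6 CPM in ERRg against 32.9 ± 2.43 CPM in GFP. CREB1 rose to 87.6 ± 10.4 CPM in ERRg against 48.3 ± 3.07 CPM in GFP, and was also higher with the offsets, as was CEBPZ.

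Amino acid transport and synthesis had the lowest median of the 6 lists. Of its 24 genes 17 were lower and 6 higher, with a median log2 fold change of -0.88. These are 70.8% and 25% of the list, beside 35.9% and 38.8% of all genes tested. With the offsets 16 were lower and 3 higher, with a median of -0.33. The shares were then 66.7% and 12.5%, beside 39.7% and 32.0% of all coding genes tested. The 16 genes lower with the offsets were all lower with TMM alone. SLC1A5, a glutamine and neutral amino acid carrier, fell to 52.9 ± 8.19 CPM in ERRg against 183 ± 16.8 CPM in GFP (log2 fold change -1.79, edgeR adjusted p = 6.88e-11). PHGDH, the first enzyme of serine synthesis, fell to 43.5 ± 6.36 CPM in ERRg against 143.9 ± 15.6 CPM in GFP (-1.73), and was at -1.24 with the offsets (adjusted p = 7.25e-11). The next enzymes of that path, PSAT1 and PSPH, named here after their values were seen, were at -0.83 and -0.93, and at -0.95 and -0.49 with the offsets. SHMT2, which passes a carbon unit from serine to folate in mitochondria, fell to 59.4 ± 12.007 CPM in ERRg against 190.0 ± 20.4 CPM in GFP. The glutamine carrier SLC38A1 rose in both fits, with 472 ± 51.4 CPM in ERRg and 224 ± 23.2 CPM in GFP. The cystine carrier SLC7A11 and the branched-chain transaminase BCAT1 rose by 0.77 and 0.83 on the log2 scale with TMM alone, and were at 0.06 and 0.12 and not called with the offsets (adjusted p = 0.353 and 0.0708).

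Of 13 tested genes for tRNA charging and export, 8 were lower and 3 higher (61.5% and 23.1%), with a median of -0.35. Over all genes tested the shares were 35.9% and 38.8%. With the offsets 6 were lower and 1 higher (46.2% and 7.69%), where all coding genes tested gave 39.7% and 32.0%. The synthetases AARS1, MARS1 and SARS1, which load alanine, methionine and serine, fell by 1.20, 1.17 and 1.04 on the log2 scale and were also lower with the offsets. NARS1, for asparagine, rose in both fits, to 224 ± 28.95 CPM in ERRg against 157 ± 10.1 CPM in GFP. LARS1 and XPOT rose by 0.30 and 0.25 with TMM alone and were not called with the offsets (adjusted p = 0.987 and 0.244).

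Other stress targets were split, with 13 of 25 tested lower and 6 higher (median -0.26). That is 52% and 24% of the list, beside 35.9% and 38.8% of all genes tested. With the offsets 9 were lower and 8 higher, 36% and 32%, beside 39.7% and 32.0% of all coding genes tested. The heme-degrading enzyme HMOX1 and the translation repressor EIF4EBP1 fell by 1.57 and 1.76 on the log2 scale and stayed lower with the offsets. BBC3 (PUMA), a pro-death BCL2 family protein, fell to 5.39 ± 0.778 CPM in ERRg against 17.2 ± 1.91 CPM in GFP, but was not called with the offsets (-0.19, adjusted p = 0.0657). BCL2L11 (BIM), of the same family, rose in both fits, to 31.6 ± 1.99 CPM in ERRg against 20.3 ± 2.63 CPM in GFP. The lipoprotein receptor VLDLR and the demethylase family protein JMJD1C rose by 1.01 and 1.38 on the log2 scale and were also higher with the offsets.

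The other branches of the unfolded protein response, run by IRE1 and ATF6, gave 13 of 18 tested genes lower and 3 higher (median -0.57). These are 72.2% and 16.7%, beside 35.9% and 38.8% of all genes tested. With the offsets 13 were lower and 2 higher, 72.2% and 11.1%, beside 39.7% and 32.0% of all coding genes tested. XBP1, the factor spliced by IRE1, fell to 52.3 ± 4.93 CPM in ERRg against 130.5 ± 9.97 CPM in GFP (log2 fold change -1.32, edgeR adjusted p = 2.29e-10) and was nearly as low with the offsets (-1.29). The reticulum proteins CRELD2 and CALR fell by 1.40 and 1.16 on the log2 scale, and by 0.50 and 0.24 with the offsets. ERN1, which encodes IRE1, and the chaperone DNAJB9 rose by 0.27 and 0.33 on the log2 scale and were also higher with the offsets. DNAJC3, a chaperone that inhibits the eIF2 kinases, was called higher with TMM alone (0.27) and lower with the offsets (-0.24).

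**Figure D4:**
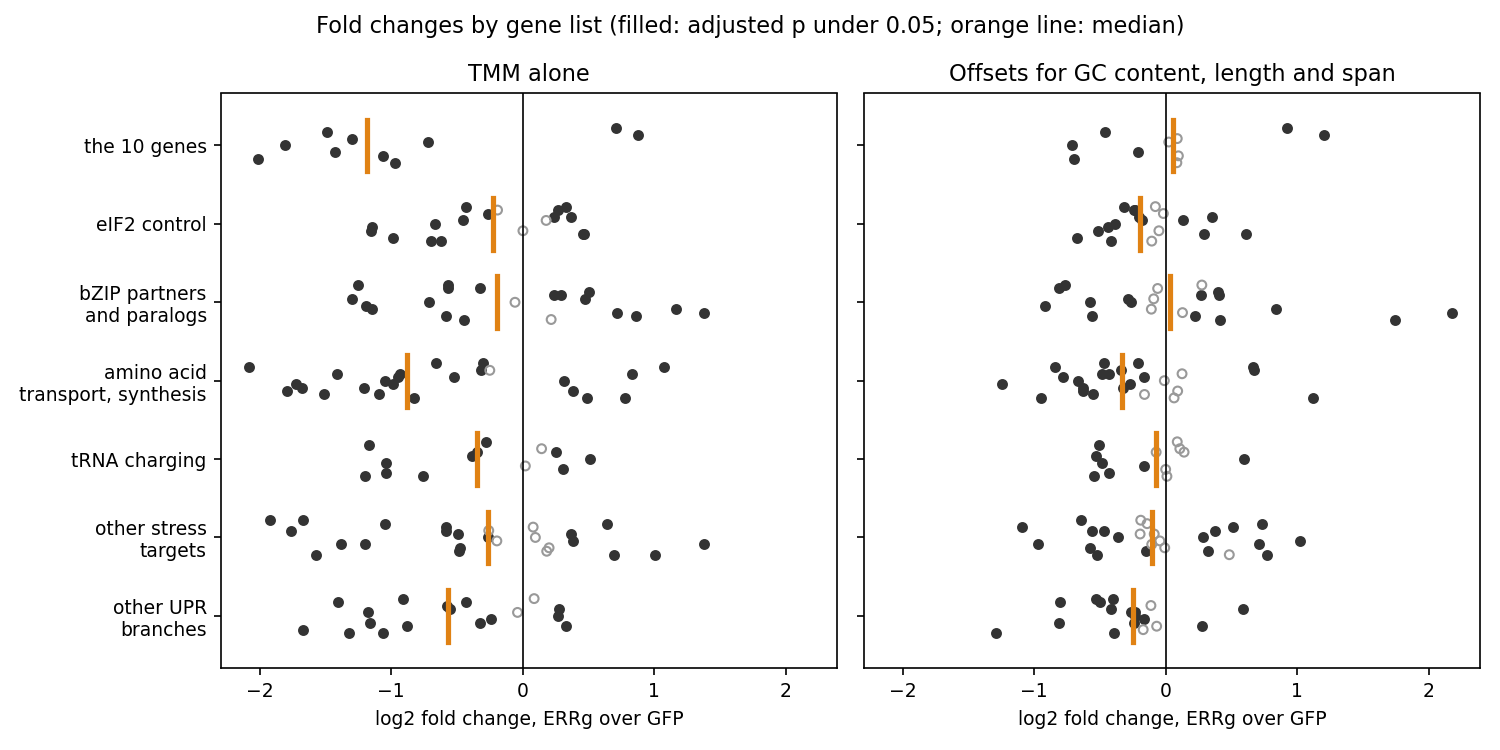
Log2 fold change, ERRg over GFP, of the 10 genes and of the tested genes in each of the 6 wider lists, with TMM alone (left) and with offsets for transcript length, GC content and span (right); each point is a gene, filled at an adjusted p under 0.05, and the orange line is the median. The amino acid list has the lowest median of the 6 in both panels, -0.88 and -0.33.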

How the data were processed

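For the 8 libraries the authors deposited whole-number read counts, unnormalised. Reads were trimmed, aligned and counted on GRCh38 with tools that include STAR 2.7.8a, HTSeq 0.11.3 and Trim Galore 0.6.6, per the submitters' processing notes, and per the labels' protocols the libraries were directional. Not given in the sources used here were the annotation release, the strand setting and the rule for reads shared by genes. The 5 summary lines, 58.6% ± 0.551 of reads in ERRg and 44.9% ± 2.48 in GFP (SD, n = 4 each), stayed out of library sizes and tests.

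The groups were tested in edgeR 4.0.16 (quasi-likelihood, TMM scaling, filterByExpr, group as the sole term, two-sided, Benjamini-Hochberg adjustment over all genes tested) in R 4.3.3. The second fit used coding genes alone and added per-library natural-spline offsets (5 degrees of freedom each) for GC content, length and span from GENCODE 29. Both were tested on simulated counts. For the offsets these counts held a trend along GC content and no changed genes. Trends along length and span, and whether the offsets keep real changes in genes rich in GC, were not tested. Ratios were tested with scipy 1.17.1. Alternatives were DESeq2 1.42.0, limma-voom 3.58.1, other scalings and filters, and libraries left out.

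The members and lists were chosen with earlier results of these data known. Named genes were the 10 members, their paralogs, the eIF2 kinases, up to 3 called genes per direction and list with the smallest p, and the 3 profiles most like ATF4. The labels do not say that replicates are separate cultures, and a p-value here reflects only how these libraries vary, which may be technical. The precision of counting depends on depth, from 21.02 to 35.5 M gene reads per library.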

Additional observations from a re-analysis of the deposited data

Results flagged for a closer look

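Of the 20 sets of 4 libraries (10 genes in 2 groups), 2 held a library far from the other 3, where chance marks about 1 in 20. DDIT3 in ERRg was lowest in ERRg 4, at 2.03 CPM, against 2.34 to 2.39 CPM in the other 3 ERRg libraries. All 4 lay below the lowest GFP library at 3.14 CPM. TRIB3 in GFP was highest in GFP 2, at 40.02 CPM, against 32.5 to 33.2 CPM in the other 3 GFP libraries, all above the highest ERRg library at 15.7 CPM.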

How the results depend on the processing

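The direction and call of the 10 genes held in 226 of 240 recomputed fold changes. The exceptions below were all with another scale, a fold threshold or offsets. With offsets for transcript length, GC content and span, the log2 fold change changed sign in ATF4 (0.084), CEBPB (0.087), DDIT3 (0.023) and PPP1R15A (0.096), and with an offset for GC content alone in CEBPB (0.019). Members lower numbered 4 with either kind of offset and 5 against a log2 fold change of 1, where 0 were higher. Leaving out each library in turn kept 8 lower and 2 higher. The lowest ASNS value was then 0.58 and its highest adjusted p 0.0373. Of the wider genes, 45 were lower and 44 higher with library totals, 51 lower and 42 higher with coding genes alone, 2 were higher and 17 lower against a log2 fold change of 1, and 19 were higher with ERRg 3 and 4 alone. Leaving out each library gave 20 to 34 higher and 66 to 71 lower, with 20 without GFP 1. Over all genes 8529 were higher and 7899 lower. Leaving out each library gave 7611 to 8518 higher and 7755 to 8247 lower. A log2 fold change of 1 left 1692 higher and 2302 lower, coding genes alone 5471 higher, the 3 offsets 4298 higher and the GC offset 4483 higher and 5248 lower. Fewer genes were tested in the coding fits, and beyond that the cause was not tested. Over all genes tested the median log2 fold change was 0.09 after TMM, 0.40 after upper-quartile scaling (11041 higher, 6045 lower) and 0.50 after scaling to library totals (11791 higher, 5383 lower). Relative to these medians ATF4 was at -1.07, -1.07 and -1.06 and CHAC1 at -2.11 in each. With the replicate block 8191 genes were higher and 7653 lower, and the 10 genes again gave 8 lower and 2 higher. Same-numbered libraries deviated together in 1 of 4 pairs (correlations from -0.64 to 0.19). Libraries with unlike numbers ranged from -0.62 to 0.71, so this check cannot show whether the numbers pair them. Depth limits ASNS, CHAC1 and DDIT3 most, and the ASNS count is also uncertain through the bases it shares with AC079781.5.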
